A study of Mus musculus with 2 samples.

Results

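Dnajb1-high cells were the melanoma cells in which at least 2 unique molecular identifiers (UMIs, each standing for 1 captured transcript) of Dnajb1 were counted. They were chosen by those UMIs among the barcodes with at least 1000 detected genes and at most 15% of UMIs from mitochondrially encoded genes. The rule found 473 cells among 9644 that passed these limits, out of 15961 barcodes in the RNA matrix. Dnajb1 itself is therefore no finding here, and only other genes are compared.

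The cells were B16F10 mouse melanoma cells recovered from 3 sources: tumours in wild-type (WT) lungs, tumours in lungs of Prf1-/- mice, which lack perforin, and knees of Prf1-/- mice (bone). Digestion at 37 °C took 20 min for the lung tumours and 30 min for the knees, so site and digestion time cannot be told apart. Viable GFP+ CD45- cells were sorted, labelled with hashtag antibody 1 (WT lung), 2 (Prf1-/- lung) or 3 (Prf1-/- bone), pooled and run once, which gave 1 RNA library and 1 hashtag library. B16F10 is an established line of C57BL/6 origin, and the labels do not give the number or age of the mice. Each source is 1 hashtag group without a replicate, so no test was possible. Intervals are 95% intervals that cover counting error only.

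Dnajb1 encodes an HSP40 co-chaperone, which hands misfolded proteins to HSP70 and stimulates its ATPase. HSP110 proteins such as Hsph1 exchange the nucleotide of HSP70, HSP90 matures kinases and receptors, and small heat shock proteins such as Hspb1 hold unfolded proteins. In the heat shock response the factor HSF1 binds repeated GAA and TTC units, the heat shock element, and raises the inducible members together, most of all the HSP70 genes Hspa1a and Hspa1b. Tissue digestion is known to raise both immediate-early genes and some heat shock genes in freshly isolated cells.

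The promoter windows of the gene that chose the cells and of 3 genes described below are shown from RefSeq (build GRCm38.p6), each running from 250 bases before to 50 bases after an annotated start, 5′ to 3′ on the strand of the gene. Capitals mark heat shock elements: the 3-unit form GAANNTTCNNGAA or TTCNNGAANNTTC where a window holds one, otherwise the 2-unit form GAANNTTC or TTCNNGAA. Each 2-unit form is its own reverse complement, the 3-unit forms are each other's, and each 3-unit form contains both 2-unit forms, so both strands were searched.
Dnajb1, chr8:83607925-83608224, plus strand: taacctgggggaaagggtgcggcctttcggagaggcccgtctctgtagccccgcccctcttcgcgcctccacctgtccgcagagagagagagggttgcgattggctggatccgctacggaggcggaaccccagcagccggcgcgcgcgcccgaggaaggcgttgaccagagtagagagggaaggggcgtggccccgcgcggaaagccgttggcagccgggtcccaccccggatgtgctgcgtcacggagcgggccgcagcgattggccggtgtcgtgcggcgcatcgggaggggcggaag
Hsph1, chr5:149636266-149636565, minus strand: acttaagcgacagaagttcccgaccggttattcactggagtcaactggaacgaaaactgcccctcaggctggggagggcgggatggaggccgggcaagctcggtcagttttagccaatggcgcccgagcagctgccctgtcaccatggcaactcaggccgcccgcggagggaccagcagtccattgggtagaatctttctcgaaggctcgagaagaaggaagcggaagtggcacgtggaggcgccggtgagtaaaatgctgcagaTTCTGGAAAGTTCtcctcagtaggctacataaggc
Hspb1, chr5:135887669-135887968, plus strand: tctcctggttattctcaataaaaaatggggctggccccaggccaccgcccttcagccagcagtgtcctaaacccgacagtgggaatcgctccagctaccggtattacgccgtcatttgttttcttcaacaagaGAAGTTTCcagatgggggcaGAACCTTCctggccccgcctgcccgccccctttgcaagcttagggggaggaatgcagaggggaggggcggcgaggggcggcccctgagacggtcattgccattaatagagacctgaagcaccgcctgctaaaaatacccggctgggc
Hspa1b, chr17:34959189-34959488, minus strand: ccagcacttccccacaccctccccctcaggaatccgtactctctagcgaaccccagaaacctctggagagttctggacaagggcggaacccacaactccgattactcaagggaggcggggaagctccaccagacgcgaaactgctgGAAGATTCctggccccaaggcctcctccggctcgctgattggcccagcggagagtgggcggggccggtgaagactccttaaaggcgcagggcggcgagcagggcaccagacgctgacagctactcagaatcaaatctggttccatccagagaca

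The 3-unit element was in 0.603% of all 32851 windows and the 2-unit element in 15.1%. Of 79 genes on the 6 chaperone lists used below, 63 matched a gene in the table, and 5 of them (7.94%, against 0.662% of all genes) held a 3-unit element in some window: Hsph1, Hspe1, Hspd1, Chordc1 and Dnajb6. A 2-unit element was in 20 of the 63 (31.7%), against 17% of all genes, and in 4 of the 27 matched immediate-early genes (14.8%). Neither of the 2 Dnajb1 windows held either form, which says only that these letters are not in those windows.

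The wider data set in short: the 9644 cells held 27324878 UMIs, with 1430 to 11974 per cell and a median of 2569. The hashtag matrix listed 6208 barcodes, of which 4204 were also in the RNA matrix. A barcode was given a source when its largest hashtag count was at least 2 times the second. WT lung then held 1227 filtered cells, Prf1-/- lung 1520 and Prf1-/- bone 385, with 242 ambiguous and 6270 not listed in the hashtag matrix. Most Dnajb1-high cells, 272 of 473 (57.5%), were not listed and so have no known source.

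Dnajb1-high cells made up 4.90% of filtered cells (interval 4.48 to 5.35). WT lung had a share of 2.85% (35 cells, interval 1.99 to 3.94), Prf1-/- lung one of 8.95% (136 cells, 7.56 to 10.5) and bone one of 3.12% (12 cells, 1.62 to 5.38). Among ambiguous cells, with a median depth of 3695.5 UMIs, it was 7.44% (18 cells, 4.47 to 11.5), and 0.826% (2 cells, 0.100 to 2.95) when thinned to 1500 UMIs a cell. Among unlisted cells it was 4.34% (3.85 to 4.87). The Prf1-/- lung share was thus 3.14 times the WT lung share, and the intervals of these 2 groups did not overlap, while WT lung and bone overlapped. Because the rule chose the cells on these UMIs, the shares are a description of the 3 groups.

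Depth moves this share, since a cell with more UMIs reaches 2 Dnajb1 UMIs more easily. Median depth was 2909 UMIs in WT lung, 2826.5 in Prf1-/- lung, 3107 in bone and 2418 in unlisted cells. With every cell thinned to 1500 UMIs, which left out 7 of the 9644 cells, the share was 0.407% in WT lung (0.132 to 0.948), 3.23% in Prf1-/- lung (2.40 to 4.24) and 1.04% in bone (0.284 to 2.64). The order of the 3 hashtag groups was kept and the 2 lung groups again did not overlap. WT lung and bone overlapped again, and their order was reversed under other settings given in the closing section. Any Dnajb1 UMI at all was seen in 20.4% of WT lung, 30.3% of Prf1-/- lung and 23.1% of bone cells. Dnajb1 was not compared with another cell type here, so these shares have no background level beside them.

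**Figure D1:**
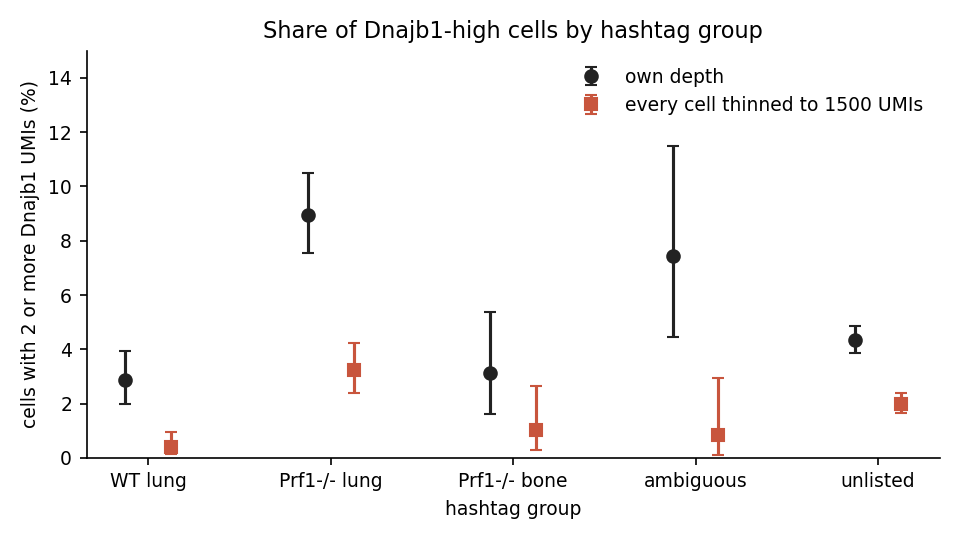
Percent of cells with at least 2 Dnajb1 UMIs (vertical axis) in each hashtag group (horizontal axis), at each cell's own depth (circles) and with every cell thinned to 1500 UMIs (squares). Bars are exact 95% binomial intervals of counting error, and Prf1-/- lung lies above WT lung on both scales (8.95% against 2.85%, and 3.23% against 0.407%).

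The spread and level of Dnajb1 rest on the UMIs that the rule used, so the values here only describe the groups. At 1500 UMIs a cell, the variance of Dnajb1 counts over their mean was 1.01 for WT lung, 1.30 for Prf1-/- lung and 1.62 for bone, where counting alone around 1 shared level gives a value near 1. No interval was set for these 3 values, and that of bone rests on 43 of 385 cells with a Dnajb1 UMI at that depth. Summed over all cells of a source, Dnajb1 stood at 76.1 counts per 1000000 UMIs (CPM) in WT lung (67.6 to 85.3), 146 CPM in Prf1-/- lung (135 to 157) and 87.7 CPM in bone (72.4 to 105). Dnajb1-high cells held 52.8% of the Dnajb1 UMIs of Prf1-/- lung and 26.9% of those of WT lung, shares that the rule itself shapes.

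Among the other chaperones compared across the 2 lung groups, Hspb1, Hsph1, Hspa8 and Dnaja1 were lower in Prf1-/- lung beyond counting error. Over all filtered cells Hspb1 was at 464 CPM in WT lung (443 to 486) and 390 CPM in Prf1-/- lung (373 to 408). Hsph1 was at 105 CPM (94.6 to 115) and 85.0 CPM (76.9 to 93.8), and Hspa8, the constitutive HSP70, at 2226 CPM (2179 to 2274) and 1980 CPM (1940 to 2020). Dnaja1, an HSP40, was at 1164 CPM (1130 to 1198) and 1073 CPM (1044 to 1103). The intervals of the 2 groups did not overlap for these genes. The share of all genes whose intervals do not overlap between these 2 groups was not computed. These values therefore describe single genes and are no finding about chaperones. Hspa1b, the inducible HSP70, was at 2.07 CPM (0.893 to 4.08) and 3.81 CPM (2.26 to 6.02), with overlapping intervals. Hsp90aa1 stood at 2497 CPM in WT lung and 2469 CPM in Prf1-/- lung, with overlapping intervals. Of the immediate-early genes, Jun was higher in Prf1-/- lung (588 CPM against 479 CPM in WT lung). Fos (643 CPM against 632 CPM) and Egr1 (86.1 CPM against 98.0 CPM) had overlapping intervals in the same order.

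Within the Dnajb1-high cells most lay at the threshold. Of the 473 cells, 321 had 2 Dnajb1 UMIs, 93 had 3, 34 had 4, 11 had 5, 7 had 6, 4 had 7, 1 had 8 and 2 had 12. Just outside the rule were 1698 cells with 1 UMI, and 7473 cells had 0.

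For the comparison across other genes, each Dnajb1-high cell was set against 2 cells with 0 Dnajb1 UMIs of nearest depth (946 matched cells). Median depth without Dnajb1 was 3049 UMIs in both, median detected genes were 1461 against 1476.5, and the median mitochondrial percentage was 2.18 against 2.25. Sources were not equally represented: 28.8% of Dnajb1-high and 18.7% of matched cells came from Prf1-/- lung, and 7.40% and 19.6% from WT lung. Values with the matched cells also drawn within source are given for some genes as the source-matched ratio.

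The cells were melanoma cells by their markers. Pmel, the fibrillar protein of melanosomes, stood at 3487 CPM in Dnajb1-high and 3266 CPM in matched cells and had a UMI in 99.8% and 98.7% of them. Dct, a melanin synthesis enzyme, stood at 3312 CPM and 3439 CPM. The 18 melanosome genes summed to a ratio of 1.00 (0.989 to 1.02). T and NK cell markers had no UMI in either arm (0 of 10 genes), myeloid markers summed to 1.26 CPM against 3.15 CPM, fibroblast markers to 8.18 CPM in both, and endothelial markers to 44.1 CPM against 36.5 CPM, of which Vwf gave 22.7 CPM and 19.2 CPM.

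Across all genes the arms were alike. Of 5696 genes with a mean of at least 20 CPM, 67 (1.18%) were at least 1.5-fold higher in Dnajb1-high cells and 48 (0.843%) at least 1.5-fold lower. Among the 67, 35 were also past that fold in the source-matched comparison, and among the 48, 31 were. The interval left out a ratio of 1 for 65 of the 67 and 44 of the 48, with intervals set gene by gene and not adjusted for the 5696 genes. The fold and the interval come from the same counts, so these numbers largely follow from the choice and are no separate support. Over all 5696 genes the interval lay above 1 for 4.67% and below 1 for 4.49%, and 48.1% had a log2 ratio above 0. Both shares past the fold are small, and counting error alone can put low genes past it. The median log2 ratio over all these genes was -0.01 (1 CPM added to each side).

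The chaperones as a group were slightly higher, and a few inducible members much more so. Of 64 chaperone genes tested on 6 lists, 4 were at least 1.5-fold higher (Hspa1b, Hspb1, Hsph1 and Hspa4l), against 1.18% of all genes, and 1 was lower (Dnajb14), against 0.843%. Hspa1b passed the mean of 20 CPM only through the Dnajb1-high arm (40.3 CPM against 0.944 CPM). Its place among the 4 was thus fixed by that filter and is no support for the lists. The interval lay above 1 for 14 of the 64, against 4.67% of all genes, and below 1 for 2, against 4.49%. Their median log2 ratio was 0.03. Summed over the lists, chaperone UMIs stood at 31949 CPM in Dnajb1-high and 28963 CPM in matched cells, a ratio of 1.10 (1.09 to 1.12). Hsph1, the second marker of heat-shock cells, was thus higher with Hspb1 and Hspa1b, but 59 of the 64 chaperone genes lay within 1.5-fold, so the cells are called Dnajb1-high here. The other 15 listed genes had a mean below 20 CPM. Among them Dnajb4, an HSP40 (20.1 CPM against 9.76 CPM), and the myosin co-chaperone Unc45a (9.44 CPM against 22.0 CPM) had intervals that left out 1.

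Among HSP40 genes, Dnaja1, the abundant cytosolic partner of HSP70, was at 1448 CPM against 1121 CPM, a ratio of 1.29 (1.23 to 1.36). The 9 other HSP40 genes tested ran from 0.631 for Dnajb14 to 1.23 for Dnajc5. Only the Dnajb14 interval left out 1 (0.418 to 0.930), and its source-matched ratio was 0.821 (0.537 to 1.23). The constitutive members Dnaja2 (1.01), Dnajc7 (0.986) and Dnajb6 (0.983) lay close to 1.

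The HSP70 and HSP110 list held 3 of the 4 higher chaperones, among them Hspa1b, which passed the filter only through the Dnajb1-high arm. Hsph1, an HSP110, had 234 UMIs in the Dnajb1-high and 285 in the matched cells, or 147 CPM against 89.7 CPM, a ratio of 1.64 (1.38 to 1.96). A Hsph1 UMI was seen in 31.7% of Dnajb1-high and 24.4% of matched cells. Hspa4l, another HSP110, was at 41.5 CPM against 26.8 CPM (ratio 1.55, 1.11 to 2.17; source matched 1.41). Hspa8 was at 2434 CPM against 2056 CPM (1.18, 1.14 to 1.23), while Hspa4, the constitutive HSP110, was at 1.10 (0.991 to 1.21). The HSP70 cofactors Bag1 (1.01), St13 (0.993) and Stub1 (0.986) did not differ beyond counting error, and Bag3, an inducible cofactor, was at 28.3 CPM against 24.9 CPM (1.14, 0.772 to 1.66).

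Hspa1b, the strictly inducible HSP70, had 64 UMIs in 473 Dnajb1-high cells and 3 UMIs in 946 matched cells, a ratio of 42.7 (14.0 to 212), and of 21.3 (9.25 to 60.1) when matched within source. Of the 64 UMIs, 31 came from 1 bone cell. By source, Hspa1b had 28 UMIs against 3 in unlisted cells, 32 against 0 in bone, 3 against 2 in Prf1-/- lung and 1 against 0 in WT lung. Hspa1a had 11 UMIs in the Dnajb1-high and 0 in the matched cells. Hspa1a and Hspa1b are near-identical copies, so reads may be split or lost between them. Counted together, a UMI of either was seen in 0.415% of cells with 0 Dnajb1 UMIs (31 of 7473) and 1.41% with 1 (24 of 1698). It was seen in 4.05% with 2 (13 of 321), 4 of 93 cells with 3, and 10.2% with 4 or more (6 of 59, 3.82 to 20.8). These shares are at each cell's own depth, neither thinned nor matched. Median depth was 2500 UMIs in cells with 0 Dnajb1 UMIs, 2771.5 with 1 and 3031 with 2.

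In the HSP90 group, Hsp90aa1, the inducible isoform, was at 3118 CPM against 2543 CPM (1.23, 1.18 to 1.27), and Hsp90ab1, the constitutive isoform, at 6368 CPM against 6097 CPM (1.04, 1.02 to 1.07). The co-chaperones Stip1 (1.16, 0.982 to 1.37) and Chordc1 (1.16, 0.941 to 1.42) were above 1 with intervals that held 1, and Cdc37, which loads kinases, was at 1.04. None of the 14 HSP90 genes tested passed 1.5-fold.

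Hspb1, the small heat shock protein HSP27, gave the clearest difference by UMIs. It had 1233 UMIs in Dnajb1-high and 1095 in 946 matched cells, or 776 CPM against 345 CPM, a ratio of 2.25 (2.07 to 2.45). A Hspb1 UMI was seen in 62.4% and 48.5% of the cells. Ubb, a polyubiquitin gene, was at 1843 CPM against 1640 CPM (1.12, 1.07 to 1.18). Cryab, another small heat shock protein, was at 767 CPM against 662 CPM (1.16, 1.08 to 1.24). The mitochondrial chaperonin genes Hspe1 (1.13, 1.08 to 1.18) and Hspd1 (1.05, 0.998 to 1.10) were near 1, as was mitochondrial Hspa9 (0.974).

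The cytosolic chaperonin CCT, which folds actin and tubulin, and its partner prefoldin summed to 4532 CPM in Dnajb1-high and 4598 CPM in matched cells (0.986, 0.958 to 1.01). Of its 14 genes none passed 1.5-fold, and Pfdn4 alone had an interval below 1 (0.731, 0.536 to 0.985). Of the heat shock factors and their regulators only Hsbp1, a negative regulator of HSF1, and Ier2 had a mean of at least 20 CPM. Hsbp1 was at 288 CPM against 275 CPM (1.05, 0.933 to 1.17). Hsf1, just under that mean, was at 20.1 CPM against 18.9 CPM (1.07, 0.672 to 1.66), and Ier2, an immediate-early gene placed on this list as a regulator, at 257 CPM against 182 CPM (1.41, 1.24 to 1.61). Among the 50 chaperone genes with a promoter window and a mean of at least 20 CPM, the 5 with a 3-unit element had a median ratio of 1.13 and the 45 without had 1.01. The 5 ran from 0.983 for Dnajb6 to 1.64 for Hsph1. One of the 5 (Hsph1) and 3 of the 45 (Hspa1b, Hspb1 and Hspa4l) passed 1.5-fold, against 1.18% of all genes. A link between the element and the ratio was not tested.

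**Figure D2:**
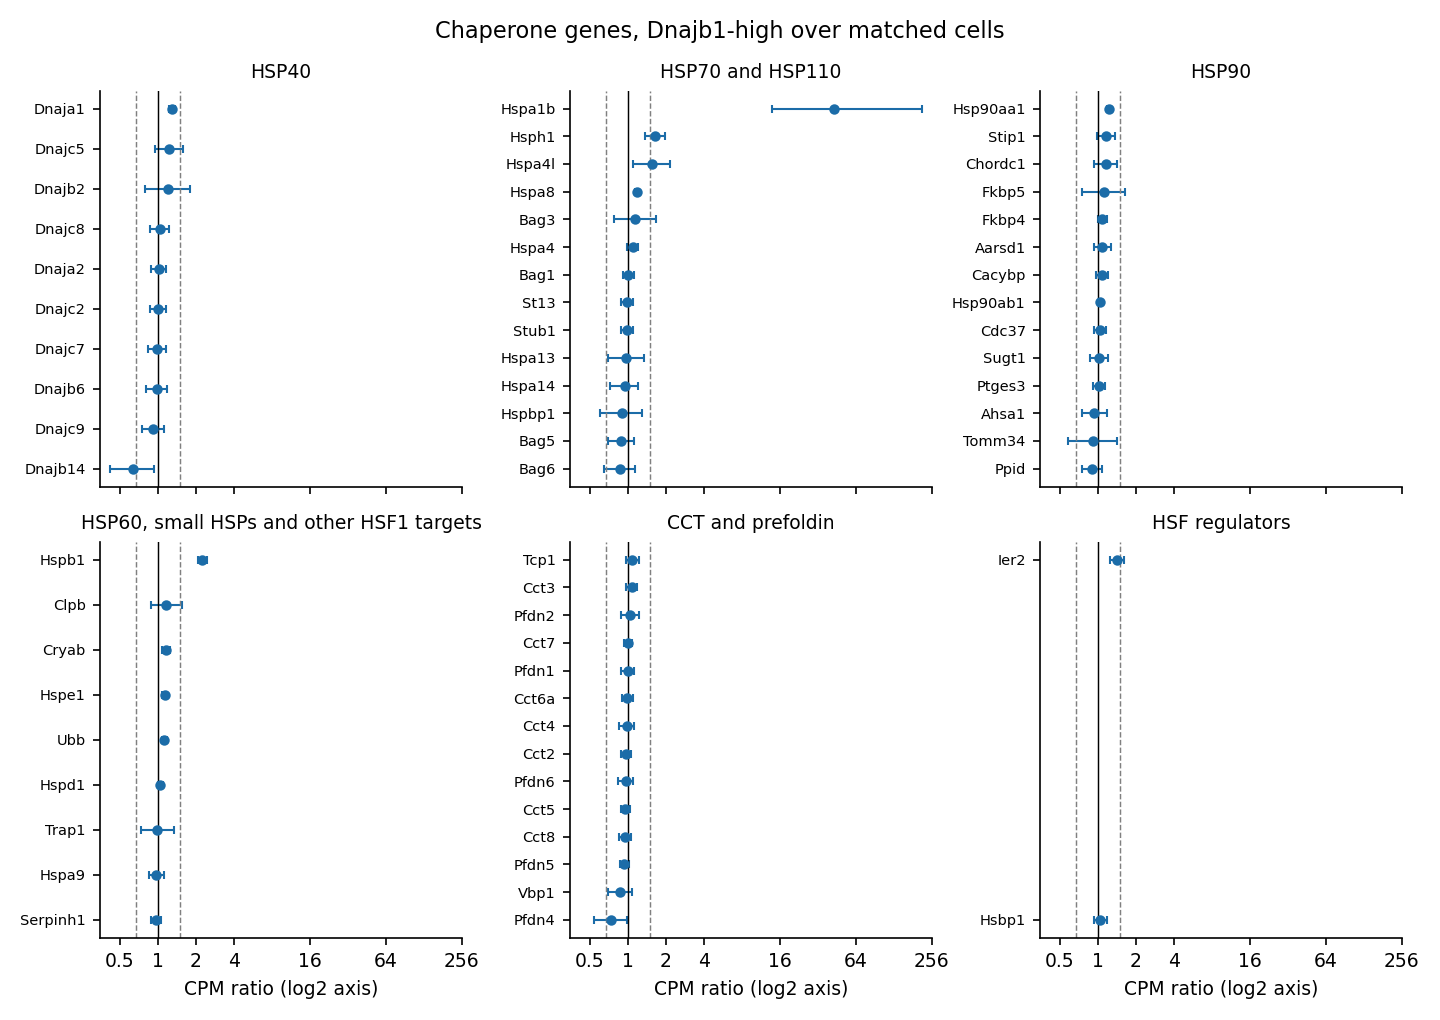
Ratio of CPM in 473 Dnajb1-high over 946 matched cells (horizontal log2 axis) for 63 of the 64 chaperone genes tested, in 6 panels by list. Bars are 95% intervals of counting error and dashed lines mark 1.5-fold either way; most genes lie near 1, with Hspa1b (42.7), Hspb1 (2.25), Hsph1 (1.64) and Hspa4l (1.55) to the right.

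Per cell, chaperone UMIs per 1000 ran from 14.8 to 156 in Dnajb1-high cells with a median of 30.7, and from 14.1 to 53.5 in matched cells with a median of 28.6. The number of Dnajb1-high cells above the highest matched cell was 7, and 69 of 473 (14.6%) lay above the 95th percentile of the matched cells. The 4 cells with the most chaperone UMIs per 1000 among all 9644 were all Dnajb1-high, at 156, 127, 95.7 and 95.2. The highest cell without the rule had 79.9 and 0 Dnajb1 UMIs.

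The strongest of these 4, from Prf1-/- bone, had 3 Dnajb1 UMIs with 31 of Hspa1b, 6 of Hspa1a, 102 of Hspb1, 10 of Hsph1 and 58 of Hsp90aa1 among 3038 UMIs. The other 3, all unlisted, had 12, 5 and 3 Dnajb1 UMIs with 70, 72 and 48 Hspb1 UMIs, and 5, 0 and 3 Hspa1b UMIs. The 4 cells had 2 to 10 Pmel and 1 to 15 Dct UMIs and at most 3.36% mitochondrial UMIs. The cell with 12 Dnajb1 UMIs had 2 Pmel and 1 Dct UMIs among 2411 UMIs. That is low beside the 3487 CPM and 3312 CPM of all Dnajb1-high cells. Without the 5 cells with most chaperone UMIs per 1000 in each arm, a choice made after seeing the data, Hspb1 was at 579 CPM against 337 CPM (1.72, 1.57 to 1.88) and Hsph1 at 126 CPM against 88.8 CPM (1.42, 1.17 to 1.70). Only Hspb1 among the 64 chaperone genes then passed 1.5-fold: Hspa4l was at 1.43 and Hspa1b, with 25 UMIs against 3, fell below the mean of 20 CPM. The summed ratio of the lists was then 1.08.

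**Figure D3:**
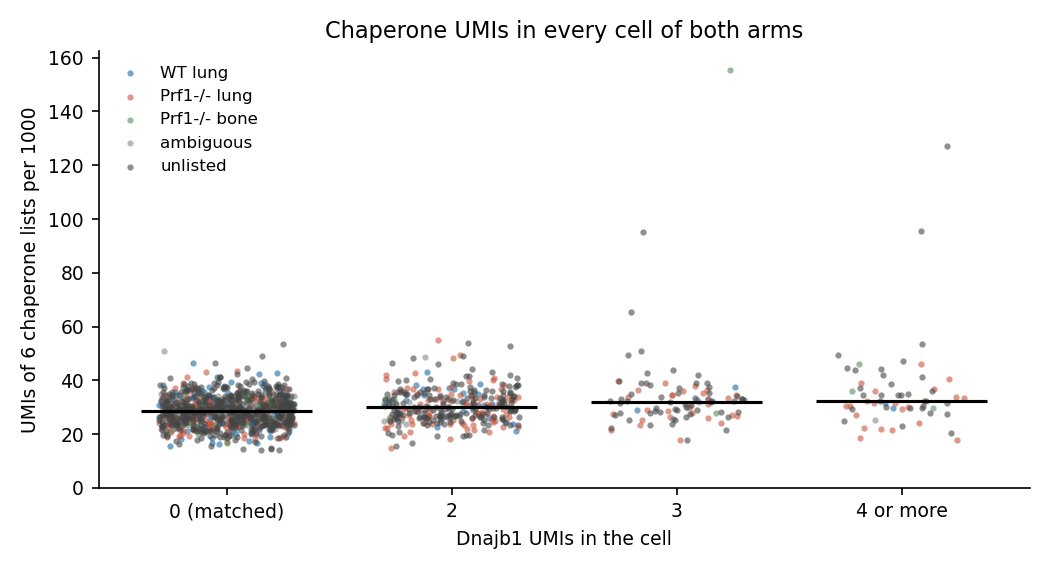
UMIs of the 6 chaperone lists per 1000 UMIs (vertical axis) in every Dnajb1-high and matched cell, by Dnajb1 UMIs (horizontal axis) and coloured by hashtag group; horizontal lines are medians and points are spread sideways for display. The bulk of both arms overlaps between about 15 and 50, and 4 Dnajb1-high cells stand apart at 95.2 to 156.

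A split of the Dnajb1-high cells by a Hspa1a or Hspa1b UMI gave 23 cells with one and 450 without. Hspb1 was at 4381 CPM in the 23 and 616 CPM in the 450, and Hsph1 at 518 CPM and 131 CPM. Among the 23 were 3 of the 4 strongest cells, and without the 4, an alternative chosen after seeing the data, Hspb1 was at 1273 CPM (1003 to 1593) and Hsph1 at 117 CPM (47.1 to 241) in the other 20. The Hsph1 interval then held the level of the cells without a Hspa1a or Hspa1b UMI. Egr1, an immediate-early transcription factor gene, had 1 UMI in the 23, or 14.8 CPM (0.375 to 82.5), and stood at 131 CPM (114 to 151) in the 450. Jun was at 1273 CPM and 861 CPM. Of the 23 cells 18 were unlisted, 2 came from Prf1-/- lung, 2 from bone and 1 from WT lung, although 134 of the 450 came from Prf1-/- lung.

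Across cells thinned to 1500 UMIs and classed by Dnajb1 UMIs at their own depth, Hspb1 in cells just outside and just inside the threshold had overlapping intervals. It stood at 414 CPM with 0, 483 CPM with 1, 528 CPM with 2, 1305 CPM with 3 and 1831 CPM with 4 or more Dnajb1 UMIs. Without the 4 strongest cells the last 2 values were 740 CPM (603 to 899) and 889 CPM (700 to 1113), still above the 528 CPM (465 to 597) of cells with 2. Hsph1 stood at 89.7, 95, 110, 172 and 271 CPM in the same order, and at 103 and 211 CPM in the last 2 classes without those 4 cells. Dnaja1 went from 1105 CPM with 0 to 1327 CPM with 2, 1964 CPM with 3 and 1932 CPM with 4 or more.

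Jun was at 554, 635, 928, 1075 and 1141 CPM, and Fos at 567, 679, 876, 1061 and 1085 CPM, so for both genes the largest step was between 1 and 2 Dnajb1 UMIs. The sum of the immediate-early list went from 2647 CPM with 0 to 3543 CPM with 2 and 4418 CPM with 4 or more. The sum of the chaperone lists went from 28649 CPM to 30864 CPM and 36215 CPM.

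**Figure D4:**
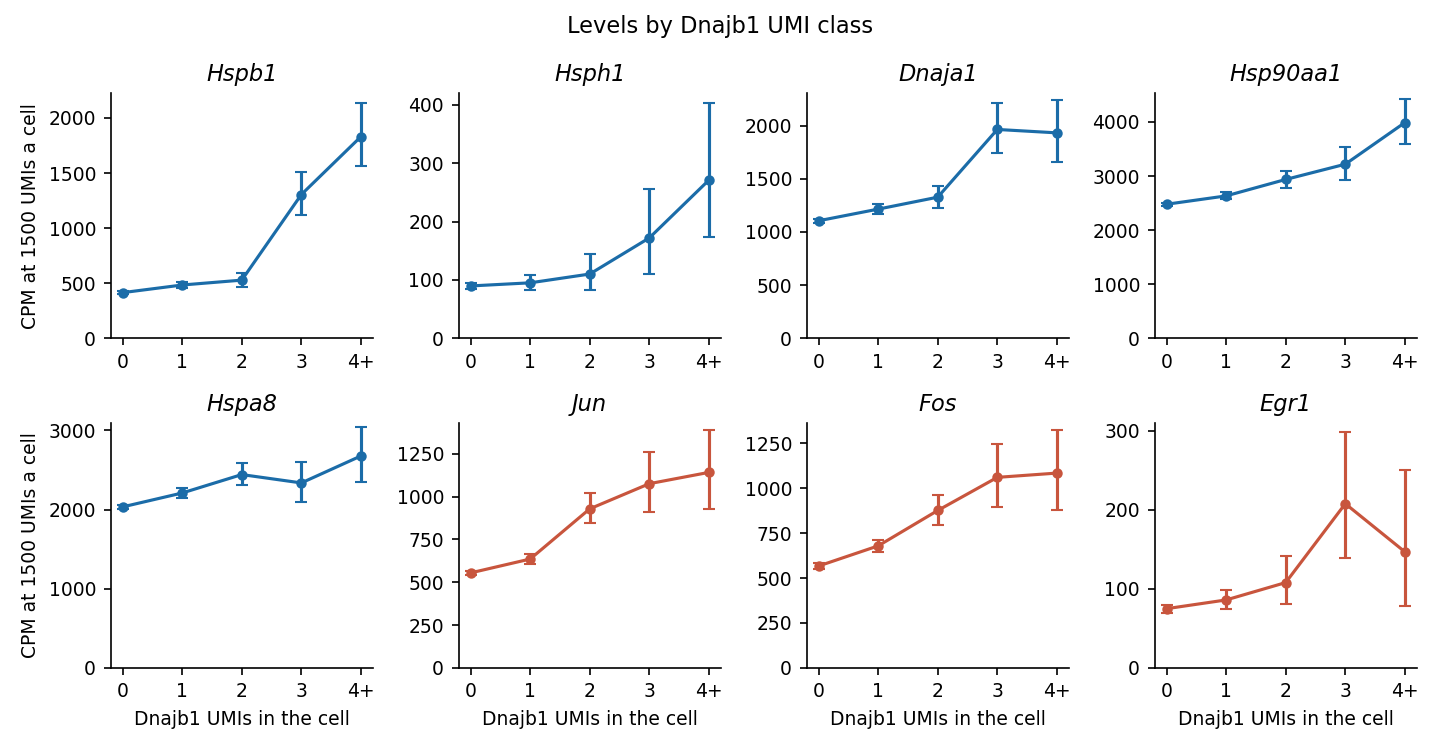
CPM at 1500 UMIs a cell (vertical axes, from 0) of 5 chaperone genes (blue) and 3 immediate-early genes (red) by the number of Dnajb1 UMIs in the cell (horizontal axes); bars are exact 95% Poisson intervals. Hspb1 goes from 414 CPM at 0 to 528 CPM at 2 and 1305 CPM at 3 UMIs, while Jun is already higher at 2 (928 CPM against 635 CPM at 1).

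The immediate-early list, transcription factors and phosphatases switched on within minutes by growth factors, stress or tissue dissociation, differed more widely than the chaperones. Of 21 genes tested, 7 were at least 1.5-fold higher and none lower, against 1.18% and 0.843% of all genes, and 24 of 25 genes with at least 10 CPM were above a log2 ratio of 0, against 48.1% of the 5696 genes with at least 20 CPM. The median log2 ratio was 0.47 and the summed ratio 1.46 (1.41 to 1.51), or 1.45 without the 5 strongest cells of each arm.

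Jun and Fos, which form the AP-1 factor, led by level. Jun was at 879 CPM against 518 CPM (1.70, 1.58 to 1.82), with a UMI in 82.9% and 65.4% of cells. Fos was at 880 CPM against 550 CPM (1.60, 1.49 to 1.72), with a UMI in 82.2% and 63.7%. Egr1 was at 127 CPM against 58.5 CPM (2.16, 1.76 to 2.65). Dusp1, a phosphatase that limits MAP kinases, was at 49.1 CPM against 27.1 CPM (1.81, 1.32 to 2.49), and Atf3 at 61.7 CPM against 35.6 CPM (1.73, 1.31 to 2.29). Ier3 (1.53) and Cebpd (1.59) were the other 2 past the fold. Matched within source, Dusp1 and Ier3 (1.49) lay just under it, and Cebpd fell to 1.35.

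Within each hashtag group, with arms matched inside it, Hspb1 differed by source. In WT lung it was at 497 CPM in 35 Dnajb1-high and 548 CPM in 70 matched cells, a ratio of 0.906 (0.668 to 1.22). In Prf1-/- lung it was at 516 CPM against 306 CPM (1.68, 1.42 to 2.00), and among unlisted cells at 897 CPM against 327 CPM (2.74, 2.45 to 3.07). In bone it was at 2672 CPM against 234 CPM (11.4), with 102 of 128 UMIs in the 1 strongest cell, and at 2.48 (1.35 to 4.59) over the other 11 cells. Hsph1 was above 1 in each: 1.44 (0.741 to 2.75) in WT lung, 1.63 (1.12 to 2.37) in Prf1-/- lung, 1.73 (1.36 to 2.19) in unlisted cells and 1.40 (0.409 to 4.40) in bone without that cell. The difference between sources has no replicate and was not tested.

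The immediate-early sum was higher in each source, at 1.52 (1.34 to 1.72) in WT lung, 1.74 (1.64 to 1.85) in Prf1-/- lung, 1.41 (1.16 to 1.72) in bone and 1.43 in unlisted cells. Jun was at 1.20 (0.889 to 1.60) in WT lung, 2.19 (1.92 to 2.50) in Prf1-/- lung and 1.18 (0.806 to 1.72) in bone. Fos was at 1.85 (1.46 to 2.33) in WT lung and 1.88 (1.65 to 2.15) in Prf1-/- lung, and at 1.25 (0.749 to 2.05) in bone. The chaperone sum was at 1.06 (1.02 to 1.10) in WT lung, 1.11 (1.09 to 1.13) in Prf1-/- lung and 1.29 (1.22 to 1.37) in bone, where it was 1.04 (0.975 to 1.11) without the strongest cell.

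**Figure D5:**
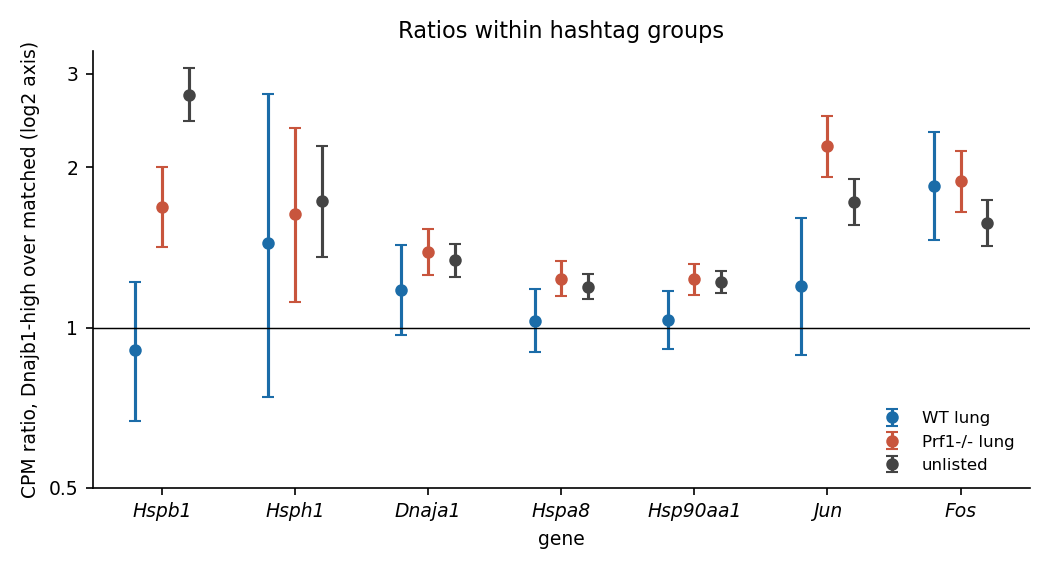
Ratio of CPM in Dnajb1-high over depth-matched cells (vertical log2 axis) for 7 genes within WT lung, Prf1-/- lung and unlisted cells; bars are 95% intervals of counting error. Hspb1 lies at 0.906 in WT lung against 1.68 and 2.74, and Fos above 1.5 in all 3.

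Other genes past the fold fell into small groups. Mitotic genes were mildly higher: 28 of 30 G2 and M phase genes were above 0 (48.1% of all genes were), the summed ratio was 1.21 (1.17 to 1.25), and 3 of 30 passed 1.5-fold (1.18% of all genes did), Kif20b (1.64), Plk1 (1.57, source matched 1.30) and Nusap1 (1.51, source matched 1.44). Top2a, the topoisomerase of dividing cells, was at 303 CPM against 223 CPM (1.36, 1.21 to 1.53), and the mitotic kinesin Kif4 at 44.1 CPM against 23.3 CPM (1.89, 1.34 to 2.66; source matched 1.60). S phase genes summed to 1.13 (1.08 to 1.18) with none of 22 past the fold. Their median log2 ratio was 0.16, and 0.04 when matched within source.

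Glycolysis and hypoxia genes summed to a ratio of 1.12 (1.10 to 1.14). The interval lay above 1 for 11 of the 17 tested, against 4.67% of all genes, and 2 passed 1.5-fold, against 1.18%. These 2 were Bnip3, a mitophagy receptor induced in hypoxia, at 64.2 CPM against 32.1 CPM (2.00, 1.51 to 2.66; source matched 1.60), and the glucose transporter Slc2a1 (1.54, 1.01 to 2.33). Gapdh was at 4778 CPM against 4280 CPM (1.12, 1.09 to 1.15). Ccn1, a matricellular YAP and SRF target, was at 38.4 CPM against 12.6 CPM (3.05, 2.01 to 4.67; source matched 4.19), and Vcl, the adhesion protein vinculin, at 32.7 CPM against 19.5 CPM (1.68, 1.14 to 2.46). Pgf, a VEGF family ligand, was at 39.0 CPM against 15.1 CPM (2.58, 1.74 to 3.85). Jmy (1.92), Fnbp1l (1.87, source matched 1.56) and the mitotic helicase gene Ercc6l (1.77) were other genes with high ratios by the rule for named genes. The chemokine gene Ccl5 was at 203 CPM against 104 CPM (1.96), with 60 of its 322 UMIs in 1 cell and a UMI in fewer Dnajb1-high than matched cells (6.98% and 7.61%).

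Other stress programmes were not higher by their summed ratios. Folding genes of the endoplasmic reticulum summed to a ratio of 0.966 (0.943 to 0.989), with Hsp90b1 at 1054 CPM against 1113 CPM, and ATF4 targets to 0.928 (0.881 to 0.978). Proteasome genes summed to 0.968 (0.948 to 0.988), NRF2 targets to 0.974 (0.961 to 0.987) and p53 targets to 0.944. Mitochondrially encoded genes summed to 0.941 (0.929 to 0.953) and ribosomal protein genes to 1.02 (1.01 to 1.03). Interferon-induced genes were at 0.991 (0.966 to 1.02), and Ifit2, the 1 of 31 past the fold upwards, had 24 of its 74 UMIs in 1 cell. The median log2 ratio of the interferon-induced genes was -0.03, but 0.12 when matched within source. Cat, the catalase gene, was the 1 of 14 NRF2 genes past the fold (1.52), where 1.18% of all genes were past it upwards.

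Cholesterol synthesis genes were at 1.07 (1.02 to 1.12), actin and adhesion genes at 1.03 (1.01 to 1.05) and nuclear-retained RNAs at 1.10 (1.07 to 1.13). Of the melanoma state genes, the group of Enho was at 0.892, that of Lgals7 at 1.03 and that of Cck at 1.23 (1.14 to 1.32). Cck, a peptide hormone gene, was at 699 CPM against 549 CPM (1.27), and at 1.60 (1.48 to 1.73) when matched within source. B and plasma cell markers summed to 1.26 CPM against 0.944 CPM and epithelial markers to 8.18 CPM against 11.96 CPM.

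The genes most lower in Dnajb1-high cells were few in UMIs. Lgals3, encoding galectin-3, was at 48.5 CPM against 87.8 CPM (0.552, 0.423 to 0.713), but at 0.742 when matched within source. It was at 0.385 (0.174 to 0.765) in WT lung, 0.491 (0.271 to 0.845) in Prf1-/- lung and 1.32 (0.903 to 1.93) in unlisted cells. Mettl1, a tRNA methyltransferase gene, was at 51.0 CPM against 90.3 CPM (0.565, 0.436 to 0.725; source matched 0.585). Smo, the Hedgehog signal transducer, was at 20.1 CPM against 36.5 CPM (0.552, source matched 0.591), and Pink1, a mitophagy kinase gene, at 22.7 CPM against 40.6 CPM (0.558, source matched 0.629). Iigp1, an interferon-induced GTPase gene, was at 36.5 CPM against 63.3 CPM (0.577, source matched 0.650). Washc4 had 24 UMIs against 96, or 15.1 CPM against 30.2 CPM (0.306 to 0.789; source matched 0.469). The other 6 named by rule were Itpripl2 (0.563), Fdxr (0.578), Gpr37 (0.579), Rab32 (0.579), Crlf3 (0.588) and Fxyd5 (0.596). Matched within source, Gpr37 was at 0.706, inside 1.5-fold, and the interval of Crlf3 held 1 (0.657, 0.420 to 1.00).

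Markers of 3 other cell types moved with the comparison at low levels. Neutrophil markers summed to 0 CPM in Dnajb1-high and 27.1 CPM in matched cells, and 7 of 7 genes were at 0 in the former. All 30 matched-cell UMIs of S100a8 lay in 1 of 946 cells, and the source-matched cells had none. Erythroid and platelet markers summed to 3.15 CPM against 30.5 CPM, with Alas2 at 0 UMIs in both, and bone cell markers to 12.6 CPM against 22.0 CPM, most of it Ctsk. Their part in the lower genes was not tested.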

How the data were processed

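One pooled run of sorted B16F10 cells gave 1 RNA and 1 hashtag library. The values are UMI counts per gene or hashtag and barcode as the authors deposited them, with no normalization; mm10, Seurat 4.3.0 and Cell Ranger 6.1.2 are given in the submitters' processing notes, but version 6.0.0 in the file headers. Barcodes kept had at least 1000 genes and at most 15% mitochondrial UMIs. Dnajb1-high cells were chosen by at least 2 Dnajb1 UMIs, and Dnajb1 was left out of totals. Each was matched without replacement to 2 cells with 0 Dnajb1 UMIs of nearest total. Counts were summed per arm to CPM, with exact conditional binomial (ratios), Poisson (levels) and Clopper-Pearson (shares) 95% intervals. Symbols are those the files pair with identifiers. A gene is past the fold at 1.5 with a mean of at least 20 CPM. Named genes are all chaperone-list genes at that mean, up to 12 per side with the most extreme log2 ratio (at least 50 UMIs, interval without 1), and 2 abundant and 2 extreme members of each other list described; members given beyond these (such as Nusap1, Ier3, Cebpd, Atf3 and Hsf1) were added after their values were seen. The members and the 34 gene lists were chosen with earlier results of these data known. Alternatives changed the matching, depth, filters and rule. The calculation was tested on simulated data. Python 3.11.15, scipy 1.17.1 and scanpy 1.11.5 (Scrublet) were used. The submitters' cell annotation was not used here, and values of 2 list genes are not reported here.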

Additional observations from a re-analysis of the deposited data

Results flagged for a closer look

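Outside the cell filter, 89 of 6317 barcodes (1.41%, 1.13 to 1.73) also had at least 2 Dnajb1 UMIs. All 6317 together had a median depth of 1305 UMIs and stood at 91.2 CPM of Dnajb1. They enter no comparison above. Of 154 genes compared within hashtag groups, 4 had ratios between Dnajb1-high and depth-matched cells that lay on opposite sides of 1 in different hashtag groups, each with an interval that left out 1. The differences between groups were not tested, since each source is 1 hashtag group.

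Ccl5 was at a ratio of 15.2 in WT lung (6.86 to 39.5), 2.22 in Prf1-/- lung (1.76 to 2.80) and 0.0854 in bone (0.00207 to 0.526). In WT lung 49 of its 53 UMIs lay in 1 Dnajb1-high cell, in Prf1-/- lung 60 of 158, and in bone 12 Dnajb1-high cells held 1 UMI. Cck was at 0.333 in WT lung (0.136 to 0.711), from 8 UMIs in 4 of 35 cells, and at 1.27 in Prf1-/- lung (1.04 to 1.55). The mitochondrial gene mt-Atp6 was at 1.21 in WT lung (1.10 to 1.33) and 0.944 in Prf1-/- lung (0.898 to 0.991). The mitochondrial gene mt-Nd4 was at 1.38 in bone (1.01 to 1.88) and 0.868 in Prf1-/- lung (0.789 to 0.954).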

How the results depend on the processing

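The share of Dnajb1-high cells (4.90% overall) follows the rule and the depth. With at least 3 Dnajb1 UMIs it was 1.58% (WT lung 0.570%, Prf1-/- lung 3.29%, bone 1.30%, unlisted 1.39%). Thinned to 1500 UMIs it was 1.92%, and 0.407%, 3.23%, 1.04% and 2.00% in the same order. With at least 1500 genes it was 7.66%, and WT lung had 4.46%, Prf1-/- lung 12%, bone 3.89% and unlisted cells 7.09%. With the largest hashtag at least 5 times the second, WT lung had 3.10%, Prf1-/- lung 9.20% and bone 2.97%. Prf1-/- lung stayed above WT lung and bone under each of these settings. Bone lay below WT lung with at least 1500 genes and with the hashtag ratio of 5, but above it in the main values.

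The counts past 1.5-fold (67 higher, 48 lower) differed between settings. They were 114 and 102 with 1 matched cell, 151 and 184 when thinned to 1500 UMIs against all cells with 0 Dnajb1 UMIs, 375 and 413 with at least 3 Dnajb1 UMIs (152 cells), 151 and 124 with at least 1500 genes, 204 and 183 in hashtag-listed barcodes only, and 12 and 7 at a mean of at least 50 CPM. The 4 chaperone genes past the fold became 8 with at least 3 Dnajb1 UMIs, 2 at 50 CPM, 1 with at least 1500 genes and 1 without the 5 strongest cells of each arm, an alternative chosen after seeing the data. The summed chaperone ratio of 1.10 was 1.20 with at least 3 Dnajb1 UMIs, 1.12 thinned, 1.06 with at least 1500 genes and 1.08 without those cells. Dnajb14 turned from lower to a log2 ratio of 0.10 in hashtag-listed barcodes only. The other 34 named genes past the fold kept their sign in all 14 alternatives, but only 20 of the 35 had a log2 ratio past 1.5-fold when thinned, the lowest number of the 14. Scrublet marked 1 of 9644 cells (0.0104%), so it did not work here and doublets were not removed. The cause of these changes was not tested. No paired analysis was possible because there is 1 RNA library and no replicate.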
